A study of Mus musculus with 48 samples.

Results

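The genes described here are the secreted and membrane parts of the Wnt pathway, with the intracellular Axins, in mouse hippocampus, chosen by gene symbol alone: the Wnt ligands, the Frizzled receptors, the co-receptors Lrp5 and Lrp6, the Axins, the R-spondins, their receptors Lgr4 to Lgr6, and the Sfrp and Dkk antagonists. The rule matched 48 of the 24421 genes in the count table, made up of 19 Wnt ligands, 10 Frizzled receptors, 4 Lrp and Axin genes, 4 R-spondins, 3 Lgr receptors, 4 Sfrp genes and 4 Dkk genes. All 48 had a count in at least 1 library and 40 had a count in every library. No measured value entered the rule.

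RNA was sequenced from the hippocampal Cornus Ammonis (CA, the pyramidal fields left after the dentate gyrus is removed) of male mice whose age is labelled as 8 weeks, with up to 10 weeks allowed by the growth protocol. In the Glu-CB1 line (strain nex-cre x CB1f/f) Cre runs from nex1 regulatory elements and removes the cannabinoid receptor CB1, encoded by Cnr1, from dorsal telencephalic glutamatergic neurons, and in the GABA-CB1 line (strain dlx5/6-cre x CB1f/f) Cre runs from dlx5/6 elements and removes it from forebrain GABAergic neurons. Each line supplied conditional knockouts (KO) and wild-type littermates (WT). Mice were taken from the home cage (basal) or had spent 5 min in an unfamiliar open field arena. By the study's text, tissue of the open field mice was isolated an hour after the exposure. The groups held 7 Glu-CB1-KO and 5 Glu-CB1-WT libraries in each state, 6 GABA-CB1-WT and 6 GABA-CB1-KO libraries in the basal state, and 7 GABA-CB1-WT and 5 GABA-CB1-KO libraries after the open field. The strain label is the same for KO and WT of a line, so the genotype label alone separates them, and whether WT mice carried Cre is not given in the sources used here. The mice whose RNA was sequenced had been picked from a larger set for tissue purity, behavior in the arena and induced activity.

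Total counts ran from 25892654 to 34091080 per library, with a median of 30975561. Cnr1 separated the labels in every comparison: it read 205 to 247 counts per 1000000 counted reads (CPM) in Glu-CB1-KO against 333 to 402 in Glu-CB1-WT, and 103 to 160 in GABA-CB1-KO against 316 to 391 in GABA-CB1-WT. The summed level of 7 CA1 pyramidal markers was 596 to 862 CPM and that of 8 dentate granule cell markers was 113 to 341 CPM, so that RNA of dentate type was present in every library. A set of 14 libraries, 1 to 3 in each group and all from the lowest range of animal numbers, stood apart on the first principal component (34.01% of the variance). Every value below comes from whole tissue, in which fewer cells of a type and less RNA per cell cannot be told apart.

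Wnt ligands are lipid-modified secreted proteins that bind a Frizzled receptor together with Lrp5 or Lrp6, which stops the Axin-based destruction complex from degrading β-catenin and lets it act with TCF/LEF factors on target genes such as Axin2. R-spondins bind Lgr4, Lgr5 or Lgr6 and keep the ubiquitin ligases Znrf3 and Rnf43 from removing Frizzled receptors, so they make a cell more sensitive to the Wnt it meets. Sfrp proteins bind Wnts outside the cell, and Dkk1 blocks Lrp6, which the divergent Dkk3 is not known to do. In the hippocampus the pathway is best known for patterning, for neurogenesis in the dentate gyrus and for the growth of synapses.

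The 4 members that passed the test in any comparison were Rspo1 (an R-spondin, chr4:124986430-125009099, plus strand), Lgr5 (an R-spondin receptor, chr10:115450314-115587780, minus strand), Wnt11 (a ligand mostly tied to β-catenin-independent signaling, chr7:98835112-98854747, plus strand) and Wnt9a (a ligand, chr11:59306930-59333552, plus strand), in mm10 coordinates spanning the first to the last exon. The promoters of those with an entry in the RefSeq promoter table of GRCm38.p6, the assembly behind mm10, are printed below as the 250 bases before the annotated start, on the plus strand, because their groups are compared in the sections that follow. Capitals mark matches to the motifs searched on both strands, which were TCF/LEF (ATCAAAG or TTCAAAG), the cyclic AMP response element (TGACGTCA), the E-box (CACGTG) and the EGR site (GCGTGGGCG).
Rspo1, chr4:124986180-124986429: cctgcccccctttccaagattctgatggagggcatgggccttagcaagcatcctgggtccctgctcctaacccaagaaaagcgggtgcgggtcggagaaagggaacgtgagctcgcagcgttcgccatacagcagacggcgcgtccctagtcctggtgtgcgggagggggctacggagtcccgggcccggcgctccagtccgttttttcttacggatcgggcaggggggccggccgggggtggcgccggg
Wnt11, chr7:98834862-98835111: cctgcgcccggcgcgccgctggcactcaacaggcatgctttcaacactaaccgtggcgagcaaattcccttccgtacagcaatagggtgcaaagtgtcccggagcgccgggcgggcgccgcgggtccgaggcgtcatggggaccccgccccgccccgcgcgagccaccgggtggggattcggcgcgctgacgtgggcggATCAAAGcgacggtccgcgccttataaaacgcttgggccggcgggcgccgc
Wnt9a, chr11:59306680-59306929: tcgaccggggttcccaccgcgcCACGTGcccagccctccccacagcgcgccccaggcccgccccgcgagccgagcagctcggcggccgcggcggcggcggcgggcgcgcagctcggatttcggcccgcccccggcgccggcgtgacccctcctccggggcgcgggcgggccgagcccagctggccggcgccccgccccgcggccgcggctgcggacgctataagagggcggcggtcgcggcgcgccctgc
The Rspo1 window held none of the 4 motifs, the Wnt11 window held 1 TCF/LEF match that begins at base -51 from the start, and the Wnt9a window held 1 E-box that begins at base -228. Another annotated Wnt11 start, with its window at chr7:98838595-98838844, had no match. Among all 32851 promoters in the table, 7.48% held the TCF/LEF letters, 6.02% the E-box, 1.55% the cyclic AMP response element and 0.536% the EGR site. Of the 33 promoters of the 30 members with an entry, 3 held the TCF/LEF letters (Dkk1, Wnt11 and Wnt5b), 3 the E-box (Fzd9, Rspo4 and Wnt9a), 1 the EGR site (Wnt6) and 0 the cyclic AMP response element. The member promoters were rich in G and C, with a median of 68.0% against 52.4% over all promoters, and the Wnt9a window reached 84.4%. Some members also sit next to each other: Wnt9a lies 16179 bases from Wnt3a, Wnt6 lies 6700 bases from Wnt10a, Wnt9b lies 24354 bases from Wnt3, and Wnt10b lies 11707 bases from Wnt1.

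Per length of exon, Dkk3 stood far above all other members, followed by Fzd3, Lrp6, Axin1 and Lgr4. Dkk3, a divergent Dkk family member, had the highest level, with group means of 164 to 176 RPKM (CPM divided by the exon length in kilobases). Among the receptors, Fzd3 had group means of 9.02 to 9.78 RPKM, well above Fzd6 at 2.29 to 2.78 and Fzd4 at 2.21 to 2.78. Fzd3 was above Fzd6 in 48 of 48 libraries, whereas Fzd6 was above Fzd4 in only 27 of 48, so those neighbors did not keep an order. The co-receptor Lrp6 had group means of 8.44 to 8.98 RPKM and the scaffold Axin1 8.22 to 8.85, and Lrp6 was the higher of them in 33 of 48 libraries. Axin2, itself a target of the β-catenin branch, had group means of 5.11 to 5.59 RPKM and was below Axin1 in 48 of 48.

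Among the ligands, Wnt7b had the highest level, with group means of 7.37 to 8.84 RPKM, and it was above its close relative Wnt7a, at 3.86 to 5.50, in 48 of 48 libraries. Wnt4 followed at 3.45 to 4.23 RPKM and was below Wnt7a in 37 of 48. Rspo2 (6.00 to 7.62 RPKM) and Rspo3 (5.02 to 6.32) were the abundant R-spondins, with Rspo2 the higher in 44 of 48 libraries, while Rspo1 had group means of only 0.308 to 1.03. Lgr4 was the main R-spondin receptor at 8.20 to 9.05 RPKM, against 0.597 to 0.935 for Lgr5 and 0.246 to 0.337 for Lgr6, an order that held in 48 of 48 libraries. The Sfrp antagonists were low, with group means of 0.843 to 1.09 RPKM for Sfrp1, 0.758 to 1.03 for Sfrp4 and 0.512 to 0.627 for Sfrp2. Dkk2 had group means of 0.0908 to 0.153 RPKM.

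**Figure D1:**
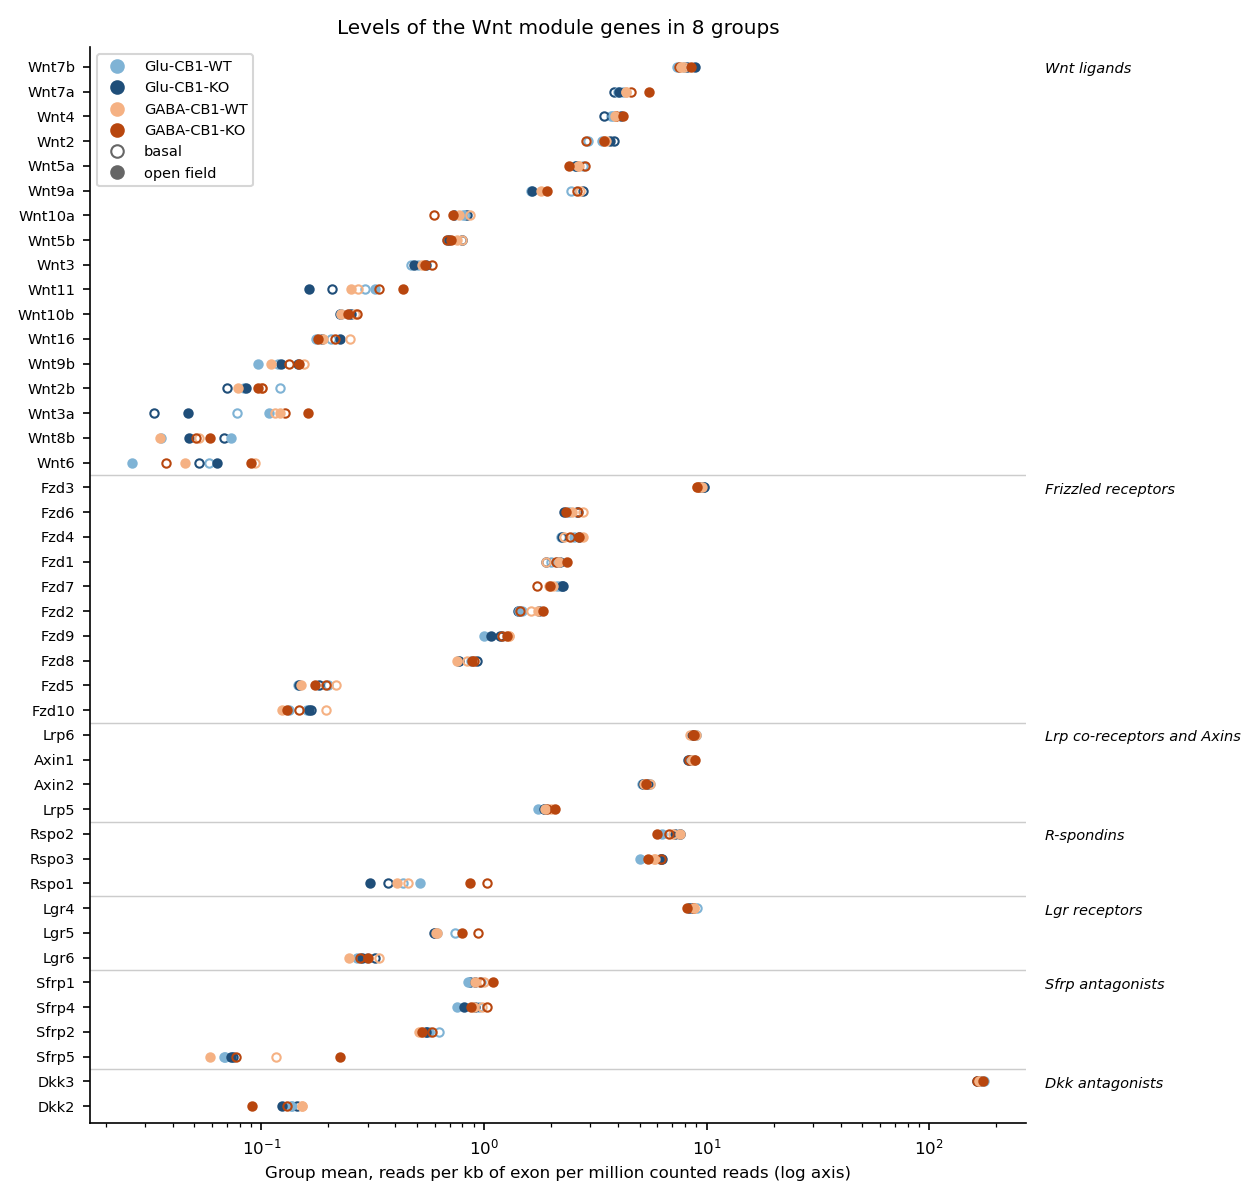
Group means of the members in RPKM (CPM per kilobase of exon), on a log axis, with 1 point for each of the 8 groups (open for basal, filled for open field, color for line and genotype). Rspo1 spreads the most among those above 0.3, from 0.308 to 1.03. Members whose median count was 0 (Wnt1, Wnt8a, Rspo4, Dkk1 and Dkk4) are not drawn.

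A group of 8 members was too low to test in any comparison: the ligands Wnt1, Wnt6, Wnt8a and Wnt8b, the R-spondin Rspo4, and the antagonists Sfrp5, Dkk1 and Dkk4. Their highest count in any library ran from 1 for Wnt8a and Dkk4 to 50 for Sfrp5. Sfrp5 and Wnt6 were highest in the same pair of libraries, GABA-CB1-KO open field replicate 4 (50 and 21 counts) and GABA-CB1-WT basal replicate 3 (25 and 15 counts), and reached at most 12 and 10 counts in the other 46. The summed level of 10 choroid plexus markers was 4239 and 1583 CPM in that pair and at most 645 CPM in the other 46 libraries. Between 39 and 40 members passed the filter on low counts in each comparison, and all counts of members below refer to those.

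Loss of CB1 from GABAergic neurons was accompanied by higher Rspo1 and Lgr5, an R-spondin and an R-spondin receptor. Over both states, Rspo1 was higher in GABA-CB1-KO than in GABA-CB1-WT by 1.13 ± 0.17 (standard error) on the log2 scale and Lgr5 by 0.50 ± 0.09. No other R-spondin or Lgr gene passed the test in this line. These were 2 of the 40 members tested over both states (adjusted p under 0.05 in edgeR's quasi-likelihood test), against 0.355% of all genes tested.

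In the basal state Rspo1 read 0.517 to 1.14 CPM (median 0.855, n = 6) in GABA-CB1-WT and 1.56 to 2.59 CPM (median 1.82, n = 6) in GABA-CB1-KO. Every KO library was above every WT library, with group means of 1.89 ± 0.37 (SD) and 0.839 ± 0.24 CPM. The fitted log2 difference was 1.18 ± 0.18 (edgeR adjusted p = 0.0132), in counts that ran from 14 to 82 per library over the whole series. After the open field the GABA-CB1-WT libraries read 0.576 to 0.865 CPM (median 0.760, n = 7), and the 5 GABA-CB1-KO libraries read 0.514, 2.25, 1.197, 1.77 and 2.20 CPM. All KO libraries except replicate 1, which was below every WT library, were above the WT range. The log2 difference of 1.08 ± 0.28 did not pass the test (edgeR adjusted p = 0.202) and without that replicate it was 1.30 with edgeR adjusted p = 0.0212. Cnr1 was low in that replicate as in the rest of its group. Over both states the adjusted p was 0.000843 in edgeR, and with any 1 library left out it stayed between 3.4e-06 and 0.00296.

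Lgr5, which marks stem cells in several epithelia and is expressed by some neurons, read 2.52 to 3.42 CPM (median 2.82) in basal GABA-CB1-WT and 3.65 to 5.05 CPM (median 4.30) in basal GABA-CB1-KO. The groups did not overlap, with means of 2.86 ± 0.35 and 4.41 ± 0.53 CPM, and the log2 difference was 0.64 ± 0.10 (edgeR adjusted p = 0.0140). After the open field Lgr5 read 2.11 to 4.29 CPM (median 2.90) in GABA-CB1-WT and 3.37, 3.67, 4.54, 3.10 and 4.13 CPM in GABA-CB1-KO. The groups overlapped there through WT replicate 1, at 4.29 CPM, and the log2 difference of 0.37 ± 0.15 did not pass (edgeR adjusted p = 0.335). Over both states the difference had an edgeR adjusted p of 0.0102, and the values with 1 library left out ran from 0.000545 to 0.0312.

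The basal comparison on its own was close to the threshold. Without GABA-CB1-KO basal replicate 6, the highest Rspo1 library at 2.59 CPM, the edgeR adjusted p of Lgr5 became 0.0532. With the range of animal numbers as a covariate the adjusted p was 0.0736 for Rspo1 and 0.0599 for Lgr5, while both log2 differences were larger (1.25 and 0.73). Without the 14 libraries that stood apart the basal difference was 1.09 for Rspo1, which no longer passed (edgeR adjusted p = 0.111), and 0.68 for Lgr5, which did (edgeR adjusted p = 0.0466). Within the low, middle and high ranges of animal numbers, the ratio of the KO to the WT mean over both states was 1.87, 2.41 and 3.07 for Rspo1 and 1.44, 1.31 and 1.63 for Lgr5, with only 1 WT library in the middle range.

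**Figure D2:**
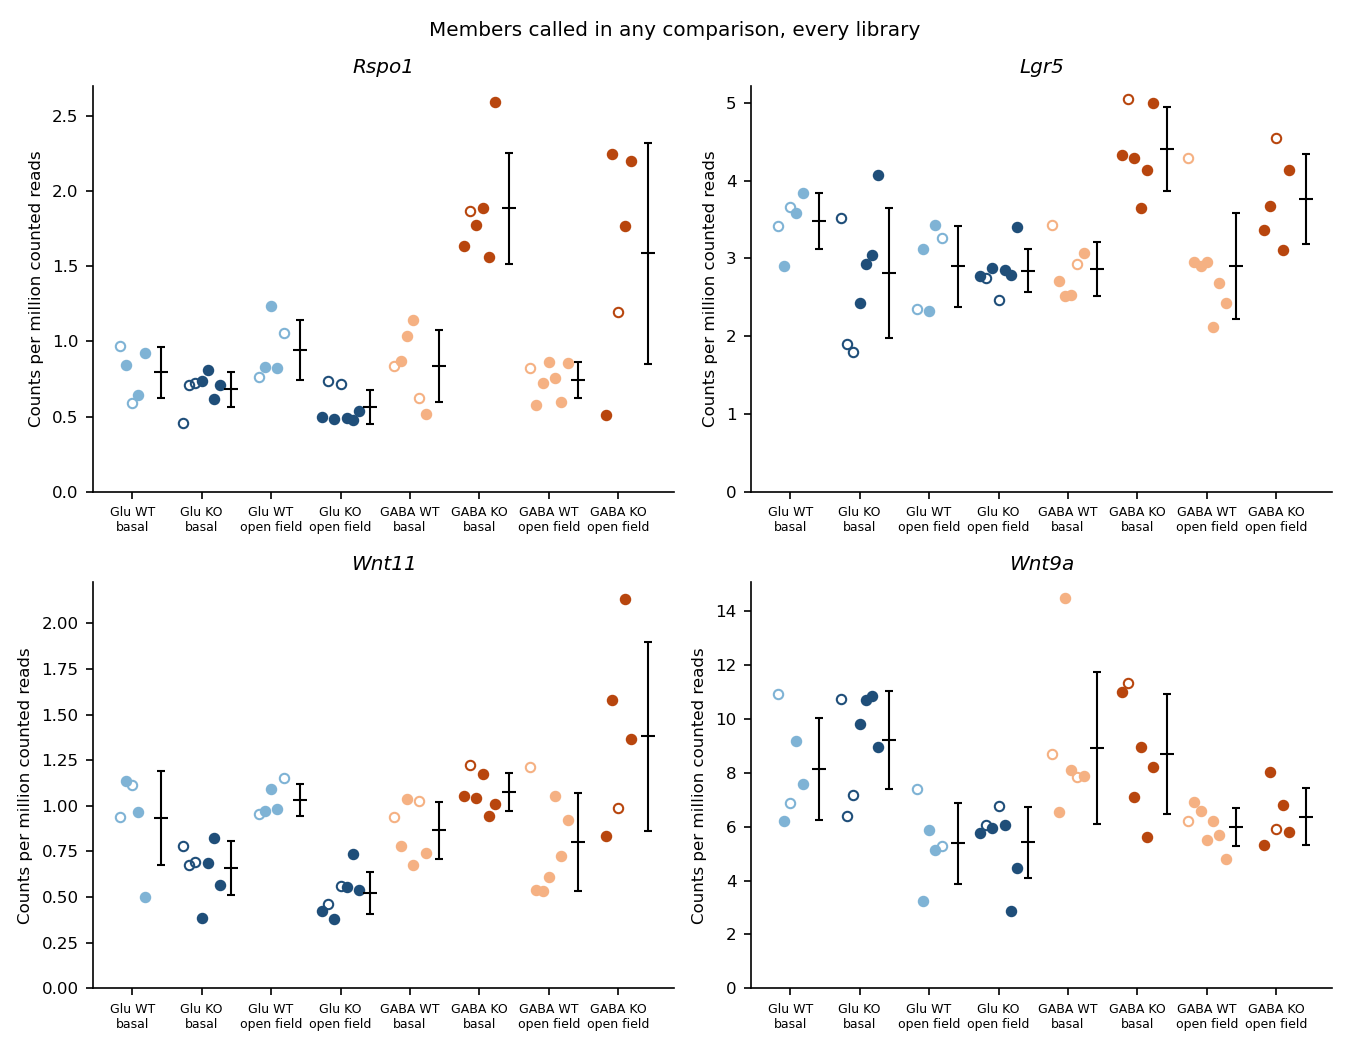
CPM of the 4 members that passed the test in any comparison, with 1 point for each library (open where the library is among the 14 that stood apart on the first principal component) and the group mean with its SD beside the points. Rspo1 and Lgr5 are highest in the GABA-CB1-KO groups, Wnt11 is lowest in Glu-CB1-KO after the open field, and Wnt9a is lower after the open field in both lines.

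Wnt10a also separated the basal GABA-CB1 genotypes, without passing the test. This gene, a ligand of the β-catenin branch, read 1.45 to 2.17 CPM (median 1.67) in GABA-CB1-WT and 0.772 to 1.37 CPM (median 1.199) in GABA-CB1-KO, a log2 difference of -0.53 ± 0.14 (edgeR adjusted p = 0.195). Non-overlapping KO and WT libraries were thus found for 3 of 40 members, against 0.623% of all genes tested, and 2 of the 40 passed the test, against 0.245%. At an unadjusted p under 0.05 there were 5 of 40 members (12.5%), against 8.16% of all genes. The other R-spondins did not move with Rspo1: basal Rspo2 was 22.7 ± 1.9 CPM in KO and 23.6 ± 4.1 in WT, and the basal Rspo3 difference was 0.11 ± 0.07 on the log2 scale (edgeR adjusted p = 0.724).

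Of the cell markers, the dentate granule list moved with both genes across libraries. After group means were subtracted from log2 CPM, Rspo1 correlated with the summed dentate granule markers over the 48 libraries at Pearson r = 0.42 (permutation p = 0.00074, 0.0333 after adjustment over the 45 correlations computed) and Spearman rho = 0.49 (adjusted permutation p = 0.0297). Lgr5 ran the other way, at r = -0.47 (permutation p = 0.0018, adjusted 0.0405) and rho = -0.46 (adjusted permutation p = 0.0430). Without the 2 libraries farthest from the median of the marker sum, r was 0.44 for Rspo1 and -0.38 for Lgr5, and Rspo1 and Lgr5 correlated with each other at r = -0.10 (adjusted permutation p = 0.696). The dentate sums overlapped between the basal genotypes, at 134 to 341 CPM in GABA-CB1-WT and 144 to 198 CPM in GABA-CB1-KO, and 0 of the 8 markers passed the edgeR test, with 7 of the 8 lower in KO and a median log2 difference of -0.24. Of all marker genes listed, the CA3 marker Bok passed in this comparison, at -0.52 (edgeR adjusted p = 0.00328). Its list was lower in KO for 7 of 9 (median -0.05). All tested choroid plexus (9, median -1.125) and microglia (8, median -0.05) markers were lower in basal KO. All 8 oligodendrocyte markers were higher (median 0.14). Over both states the interneuron markers Sst (-0.31) and Pvalb (-0.17) passed the edgeR test among 10 listed, both lower in GABA-CB1-KO. That list was lower for 7 and higher for 3 (median -0.05). Over both states all choroid plexus (10, median 0.73) and oligodendrocyte (8, median 0.06) markers were higher in KO. All endothelial (8, median -0.08) and mural (8, median -0.05) markers were lower. The part of these markers in the Rspo1 and Lgr5 differences was not tested.

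In GABA-CB1 mice after the open field, 0 of 39 members passed the edgeR test, against 0.0199% of all genes, with 8 members at an unadjusted p under 0.05 (20.5%, against 13.2% of all genes). In DESeq2 1 member, Rspo2, passed, against 1.01% of all genes. Rspo2 was the only member whose groups did not overlap, against 1.01% of all genes. It read 22.6 to 33.2 CPM (median 24.1) in GABA-CB1-WT and 21.4, 20.3, 21.7, 18.8 and 17.9 CPM in GABA-CB1-KO. Its log2 difference was -0.34 ± 0.09, with an adjusted p of 0.230 in edgeR and 0.0354 in DESeq2. Wnt7a read 13.8 ± 1.6 CPM in WT and 17.5 ± 2.7 in KO (log2 difference 0.33 ± 0.09, edgeR adjusted p = 0.235), and Dkk2 read 0.566 ± 0.14 in WT and 0.337 ± 0.11 in KO (-0.75 ± 0.23, edgeR adjusted p = 0.254). The summed level of 10 GABAergic interneuron markers did not overlap between these groups, at 879 to 958 CPM in WT and 826 to 858 CPM in KO. Gad1 and Gad2 had the highest medians of that list over all libraries, at 377 and 217 CPM. Of the 10 markers 0 passed the edgeR test, with 9 lower in KO (median -0.11). Choroid plexus markers were higher in KO for 9 of 9 tested (median 2.42). Endothelial and mural markers were lower for 7 of 8 each (medians -0.099 and -0.125). The part of these markers in these values was not tested.

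Loss of CB1 from glutamatergic neurons was accompanied by lower Wnt11. Over both states Wnt11 was lower in Glu-CB1-KO by -0.74 ± 0.14 on the log2 scale (edgeR adjusted p = 0.00935), and it was the only member of 39 to pass, against 0.257% of all genes. It was also the only member to pass after the open field, against 0.272%, at a mean of 0.523 ± 0.12 CPM in KO and 1.03 ± 0.088 CPM in WT.

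After the open field Wnt11 read 0.953, 0.971, 1.09, 0.983 and 1.16 CPM in Glu-CB1-WT and 0.381 to 0.736 CPM (median 0.539, n = 7) in Glu-CB1-KO. Every KO library was below every WT library, and the log2 difference was -0.97 ± 0.16 (edgeR adjusted p = 0.0185). In the basal state it read 0.937, 1.14, 1.12, 0.969 and 0.498 CPM in WT and 0.383 to 0.827 CPM (median 0.686) in KO, and the groups overlapped only through WT replicate 5, which lay at 0.498. That basal difference of -0.51 ± 0.21 did not pass (edgeR adjusted p = 0.999). Leaving out 1 library ended the open field call in 5 of 12 cases, with edgeR adjusted p of 0.0569 without KO replicate 1, 0.0566 without KO replicate 2, 0.0597 without WT replicate 3, 0.0594 without WT replicate 4 and 0.0787 without WT replicate 5. It was also lost without the 14 libraries that stood apart, at -0.94 with edgeR adjusted p = 0.259. Over both states the adjusted p with 1 library left out ran from 0.000742 to 0.0282, and without the 14 libraries that stood apart the difference was -0.73 with adjusted p = 0.224. Within the low, middle and high ranges of animal numbers the KO to WT ratio over both states was 0.55, 0.61 and 0.69, with 1 WT library in the middle range.

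Rspo1 also separated these groups. It read 0.763, 0.832, 1.24, 0.824 and 1.05 CPM in Glu-CB1-WT after the open field and 0.480 to 0.740 CPM (median 0.497) in Glu-CB1-KO, where all 7 libraries were below the WT range. The log2 difference of -0.73 ± 0.18 did not pass the test (edgeR adjusted p = 0.137). Wnt11 and Rspo1 were the 2 members of 39 whose groups did not overlap, against 0.776% of all genes. In the basal state Rspo1 read 0.973, 0.846, 0.589, 0.646 and 0.920 CPM in WT and 0.456 to 0.811 CPM (median 0.710) in KO, which overlapped.

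Wnt7b, the most abundant ligand, was nearest to the threshold in the other direction. It read 33.02, 36.5, 31.1, 30.8 and 31.3 CPM in Glu-CB1-WT after the open field and 34.8 to 40.9 CPM (median 39.3) in Glu-CB1-KO. The groups overlapped through WT replicate 2 and KO replicate 5, and the log2 difference was 0.25 ± 0.05 with an edgeR adjusted p that rounds to 0.05 and lay just above the threshold. It passed without WT replicate 2 (0.00742) or without KO replicate 5 (0.0330), and in DESeq2 (0.00113). Wnt7b shares exons with AU022754 on the opposite strand, so its counts are uncertain to the extent that reads of one were assigned to the other. Rspo3 read 12.0 ± 1.8 CPM in WT and 15.1 ± 1.1 in KO (log2 difference 0.33 ± 0.09), with an adjusted p of 0.217 in edgeR and 0.0400 in DESeq2. Dkk3 read 590 ± 24 CPM in WT and 554 ± 21 in KO, a log2 difference of -0.10 ± 0.04 (edgeR adjusted p = 0.509).

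Some markers of neighboring tissue differed between the same groups. The summed level of 7 thalamic markers did not overlap after the open field, at 90.6 to 106 CPM in Glu-CB1-WT and 71.5 to 78.6 CPM in Glu-CB1-KO. Prkcd (-0.58) and Plekhg1 (-0.42) passed the edgeR test among the 6 tested, of which 3 were lower and 3 higher in KO (median -0.02). Their median levels over all libraries were 39.1 and 35.1 CPM, against at most 6.81 CPM for any other listed thalamic marker. The sum therefore mostly follows Prkcd and Plekhg1 and does not stand for the list as a whole. Across the 48 libraries, with group means subtracted, the thalamic sum correlated with Rspo1 at Pearson r = 0.50 (adjusted permutation p = 0.0828) and Spearman rho = 0.41 (adjusted permutation p = 0.121), and with Wnt11 at r = 0.33 (adjusted permutation p = 0.294) and rho = 0.28 (adjusted permutation p = 0.281). Without the 2 farthest libraries r was 0.36 for Rspo1 and 0.17 for Wnt11. The CA3 marker Iyd (-0.56) and the interneuron peptide Npy (0.55) also passed. Over both states Plekhg1 (-0.38), Npy (0.48) and the interneuron peptide Sst (0.35) passed. There the thalamic list was higher in KO for 4 of 6 tested (median 0.06) and the interneuron list for 9 of 10 (median 0.10). The part of these markers in the Wnt11 and Rspo1 values was not tested.

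In the basal state 0 of 39 members passed the edgeR test in the Glu-CB1 line, against 0.0198% of all genes, with 3 members at an unadjusted p under 0.05 (7.69%, against 3.57% of all genes) and 0 in DESeq2 (0.0793% of all genes). No member's groups were free of overlap, against 0.165% of all genes. After the open field 7 of 39 members (17.9%) had an unadjusted p under 0.05, against 6.97% of all genes, and DESeq2 called 3 members there (Rspo3, Wnt7b and Wnt11), against 0.816% of all genes.

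**Figure D3:**
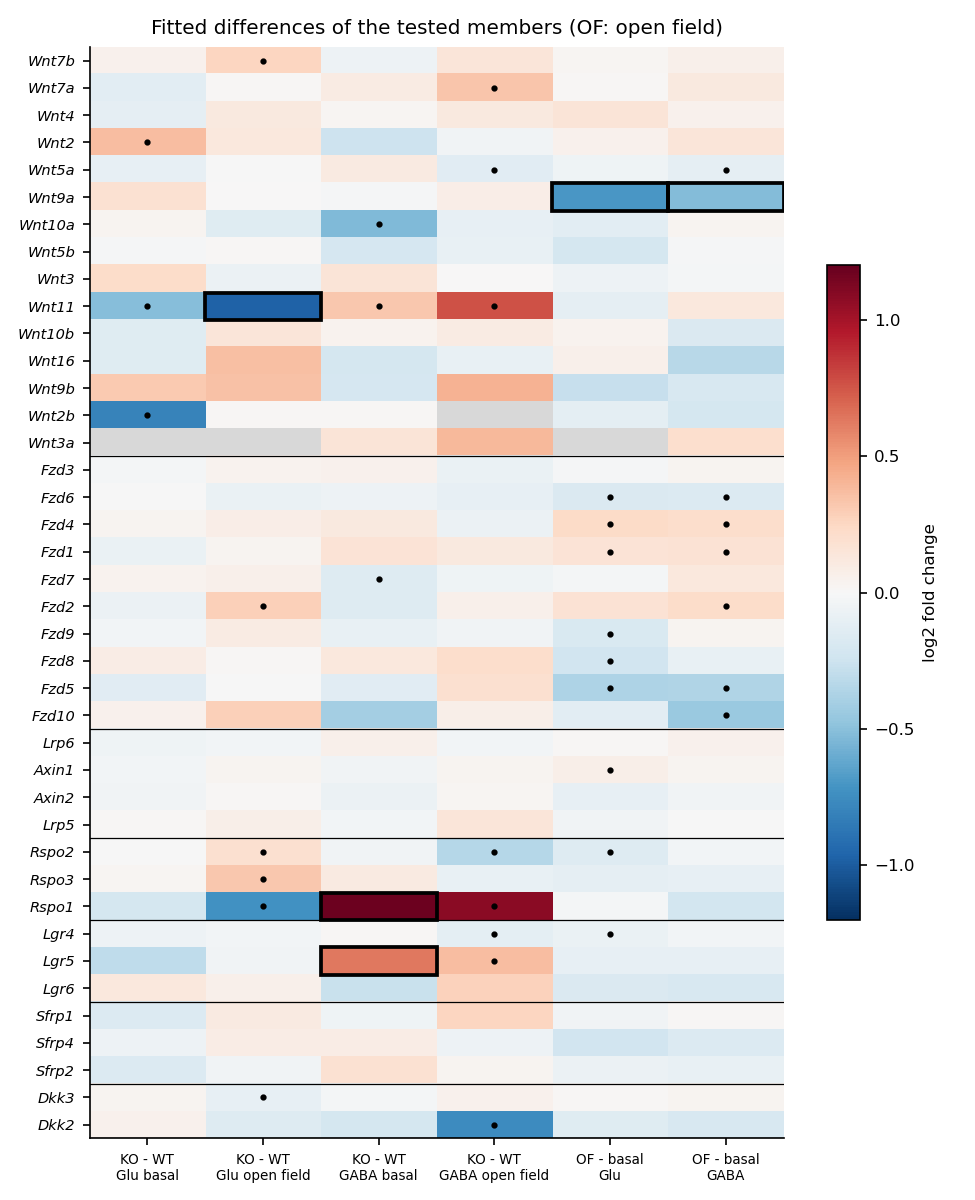
Log2 differences of the tested members for KO against WT in each line and state and for open field against basal in each line (red higher, blue lower, gray not tested). Boxes mark an adjusted p under 0.05 and dots an unadjusted p under 0.05 in edgeR. In the KO against WT columns Rspo1 and Wnt11 are blue for Glu-CB1 and red for GABA-CB1.

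Rspo1 and Wnt11 differed between the lines in the effect of losing CB1. The basal KO effect on Rspo1 was lower in the Glu-CB1 line than in GABA-CB1, by -1.39 ± 0.26 log2 units (edgeR adjusted p = 0.0125, interaction of genotype and line), and after the open field by -1.81 ± 0.35 (edgeR adjusted p = 0.0126). For Wnt11 the difference between the lines was -1.74 ± 0.31 after the open field (edgeR adjusted p = 0.00681), with KO effects of -0.97 in Glu-CB1 and 0.77 ± 0.25 in GABA-CB1. The GABA-CB1 effect on Wnt11 did not pass on its own (edgeR adjusted p = 0.267). Among the marker genes, Npy (0.71, edgeR adjusted p = 0.00547) and Plekhg1 (-0.45, edgeR adjusted p = 0.0237) passed in the basal line difference. The thalamic list of Plekhg1 was positive for 4 of 6 tested (median 0.11) and the interneuron list of Npy for 6 of 10 (median 0.08). All tested markers were positive on the choroid plexus (10), dentate granule (8), subiculum and cortex (8) and microglia (8) lists. All 8 oligodendrocyte markers were negative. The part of these markers in the Rspo1 value was not tested. In the basal state the Wnt11 line difference of -0.83 ± 0.25 did not pass either (edgeR adjusted p = 0.231).

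The GABA-CB1-KO libraries behind the open field contrast were uneven for Wnt11, at 0.835, 1.58, 0.986, 2.14 and 1.37 CPM against 0.536 to 1.22 CPM (median 0.728) in GABA-CB1-WT. The highest, replicate 4, was the library with the choroid plexus sum of 4239 CPM, and without it the GABA-CB1 effect was 0.56 and the line difference was -1.53 with edgeR adjusted p = 0.0152. Wnt11 correlated with the choroid plexus sum at Pearson r = 0.43 (adjusted permutation p = 0.0970) and Spearman rho = 0.36 (adjusted permutation p = 0.121), and at r = 0.28 without the 2 farthest libraries. In the same line difference the markers Prkcd (-0.62), Npy (0.76), Sst (0.78) and Gad1 (0.25) passed the edgeR test. The thalamic list of Prkcd was negative for 4 and positive for 2 (median -0.08). The interneuron list was positive for 10 of 10 (median 0.23). All 10 choroid plexus (median -2.33) and all 8 oligodendrocyte markers (median -0.11) were negative. The part of choroid plexus RNA and of these markers in the Wnt11 values and in the open field line difference of Rspo1 was not tested.

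Lgr5 lay at the edge of the same test. Its basal line difference was -0.94 ± 0.21 (edgeR adjusted p = 0.0536), which passed when any of 4 libraries was left out, namely Glu-CB1-KO basal replicate 1 (0.0383) or 7 (0.0104), GABA-CB1-WT basal replicate 1 (0.0442) or GABA-CB1-KO basal replicate 4 (0.0423). Rspo2 had the opposite sign, with an open field line difference of 0.53 ± 0.13 (edgeR adjusted p = 0.0631). In all, 1 of 40 members passed the basal line difference, against 0.279% of all genes, and 2 of 40 passed after the open field, against 0.568%. Under 8 other settings the basal Rspo1 line difference was lost in 2, and that of Lgr5 passed in 4. Without the 14 libraries that stood apart the basal Rspo1 line difference was -1.24 and did not pass (edgeR adjusted p = 0.173).

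**Figure D4:**
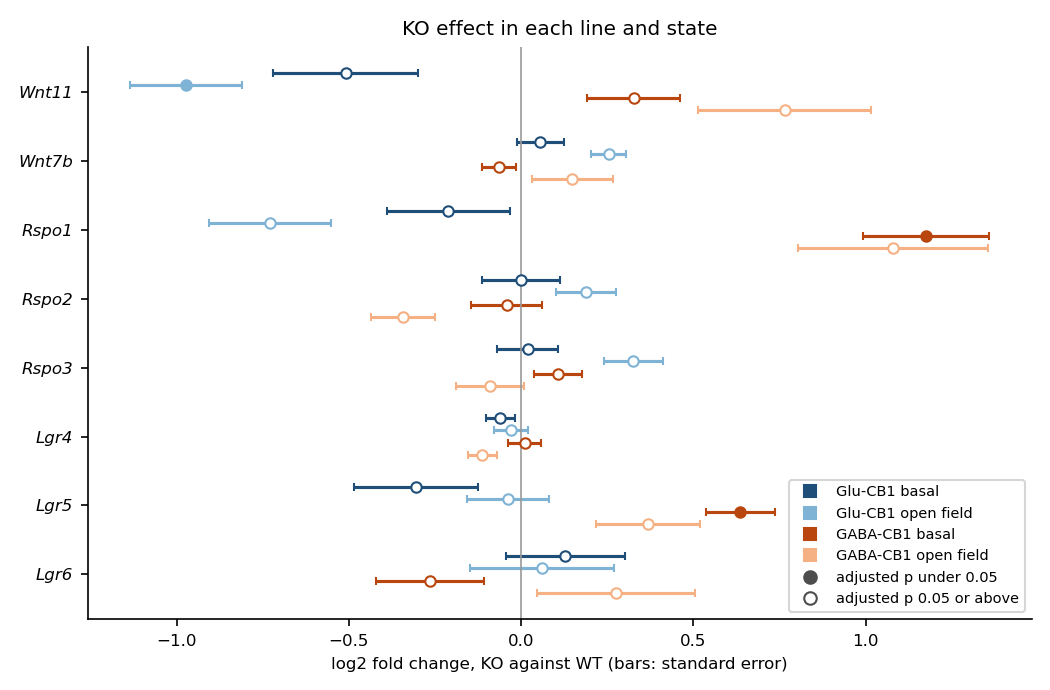
Log2 difference of KO against WT with its standard error for Wnt11, Wnt7b, the R-spondins and the Lgr receptors in each line and state, filled where the adjusted p is under 0.05. For Rspo1 and Wnt11 both Glu-CB1 points lie below 0 and both GABA-CB1 points above 0, from -0.73 to 1.18 for Rspo1 and from -0.97 to 0.77 for Wnt11.

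Whether the KO effect depended on the open field was tested within each line. The test called 0 of 39 members in Glu-CB1 and 0 of 40 in GABA-CB1 by edgeR, with 0% of all genes called in either line, and 0 members in DESeq2 in both lines, which called 0% and 0.41% of all genes. An unadjusted p under 0.05 was found for 4 members in Glu-CB1 (10.3%, against 2.47% of all genes) and 2 in GABA-CB1 (5.0%, against 14.6%). The Glu-CB1 members with an unadjusted p under 0.05 included Rspo1, with a state change of -0.52 ± 0.24, and Rspo3, with 0.31 ± 0.13 (edgeR adjusted p = 1.0 for both). A call in 1 state and not in the other, as for Wnt11, was therefore not shown to differ between the states.

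Of the ligands, 1 passed the open field test in both lines, and it was lower after the open field. The log2 difference of Wnt9a, open field minus basal with genotype as a covariate, was -0.70 ± 0.13 among Glu-CB1 mice (edgeR adjusted p = 0.00583) and -0.52 ± 0.12 among GABA-CB1 mice (edgeR adjusted p = 0.0264). It was the only member called in each line, 1 of 39 and 1 of 40, against 1.83% and 0.966% of all genes.

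In the Glu-CB1 line Wnt9a read 6.39 to 10.9 CPM (median 9.80, n = 7) in basal KO and 10.9, 6.21, 6.88, 9.19 and 7.59 CPM in basal WT. After the open field it read 2.88 to 6.75 CPM (median 5.96) in KO and 7.40, 3.23, 5.89, 5.14 and 5.30 CPM in WT. The state means were 8.79 CPM in the basal state and 5.41 CPM after the open field, and the ranges overlapped. In the GABA-CB1 line basal WT read 6.53 to 14.5 CPM (median 7.99) and basal KO 5.62 to 11.4 CPM (median 8.60), against 4.81 to 6.91 CPM (median 6.21) in open field WT and 5.33, 8.04, 5.92, 6.81 and 5.80 CPM in open field KO. The GABA-CB1 difference was 0.0521 to 0.0546 in adjusted p when any 1 of 4 libraries was left out (basal KO replicate 1 or 2, open field WT replicate 6 or open field KO replicate 3), and -0.50 with edgeR adjusted p = 0.198 without the 14 libraries that stood apart. The Glu-CB1 adjusted p ran from 0.00371 to 0.0132 with 1 library left out. Within the low, middle and high ranges of animal numbers the open field to basal ratio was 0.74, 0.40 and 0.60 in Glu-CB1 and 0.62, 0.93 and 0.70 in GABA-CB1. The middle range held 3 open field and 2 basal libraries in Glu-CB1, and 2 open field and 3 basal libraries in GABA-CB1. Its basal libraries were all KO in each line, so state was mixed with genotype there. The astrocyte marker Sox9 (-0.22, edgeR adjusted p = 0.00782) was the only marker gene to pass in the Glu-CB1 open field comparison, and 0 passed in GABA-CB1. In Glu-CB1, fitted differences were negative for 10 of 10 meningeal fibroblast, 7 of 7 CA1 and 7 of 8 dentate granule markers (medians -0.09, -0.06 and -0.09). They were also negative there for 7 of 8 mural and 7 of 8 endothelial markers (-0.05 and -0.12), and for 4 of 8 astrocyte markers. In GABA-CB1 the first 5 lists were negative for 7 of 10, 3 of 7, 8 of 8, 8 of 8 and 6 of 8 (medians -0.04, 0.02, -0.18, -0.09 and -0.06). Choroid plexus markers were positive for 4 of 10 in Glu-CB1 and 9 of 10 in GABA-CB1 (medians -0.03 and 0.28). The part of these markers in the Wnt9a values was not tested.

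No Frizzled receptor passed the open field test in either line, and 4 of 10 had an unadjusted p under 0.05 in both. Fzd4, which also binds Norrin, read 9.63 ± 1.2 CPM after the open field and 8.23 ± 1.1 in the basal state in Glu-CB1, a log2 difference of 0.23 ± 0.08 (edgeR adjusted p = 0.130), and 10.1 ± 1.9 against 8.71 ± 1.1 CPM in GABA-CB1, a difference of 0.21 ± 0.09 (edgeR adjusted p = 0.298). Fzd6, a receptor of the planar polarity branch, read 9.68 ± 0.93 against 10.9 ± 1.3 CPM in Glu-CB1 and 10.1 ± 1.3 against 11.2 ± 1.3 CPM in GABA-CB1, a log2 difference of -0.17 in each line (edgeR adjusted p = 0.186 and 0.281). Outside the members named by rule, Fzd5 (-0.37 and -0.36) and Fzd1 (0.16 and 0.17) were picked after their values were seen, as the remaining members with an unadjusted p under 0.05 and the same sign in both lines. Fzd3, the most abundant receptor, differed by -0.02 in Glu-CB1 and 0.03 in GABA-CB1.

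The lines share no library, so their open field differences can be set side by side. Among the 39 members tested in both, 31 (79.5%) had the same sign, against 68.6% of all genes tested in both. An unadjusted p under 0.05 in both lines was found for 5 members (Wnt9a, Fzd6, Fzd4, Fzd1 and Fzd5), which is 12.8% of them against 5.597% of all genes, and the sign was the same for all 5. Across the 39 members the log2 differences correlated at Pearson r = 0.69, or 0.59 without Wnt9a, against 0.51 across all genes. These are correlations across genes, which are not independent replicates.

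**Figure D5:**
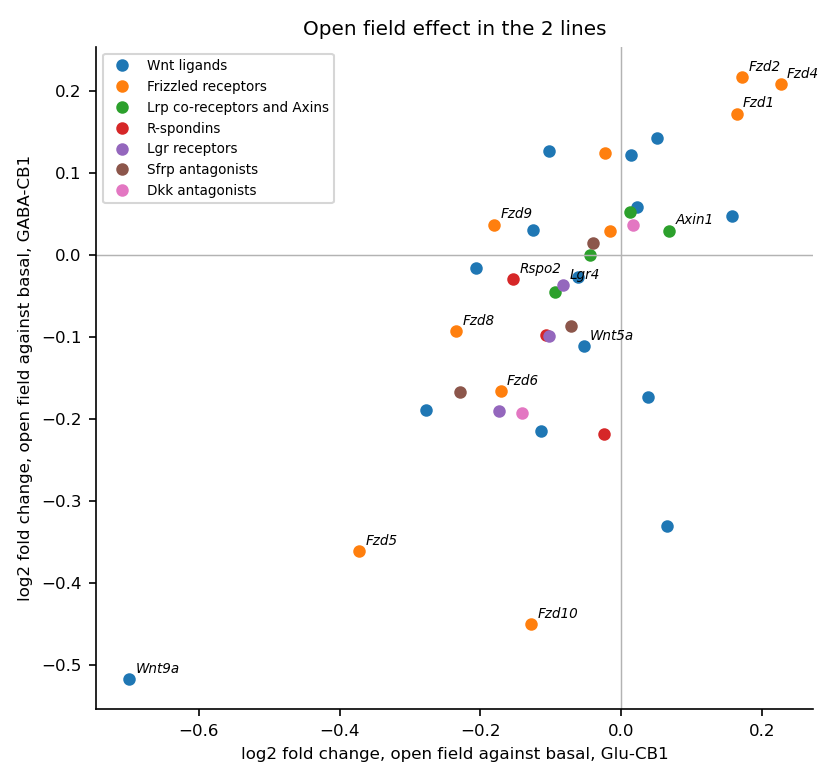
Log2 difference of open field against basal in the Glu-CB1 line (x axis) and the GABA-CB1 line (y axis) for the 39 members tested in both, colored by role and named where the unadjusted p was under 0.05 in either line. Wnt9a lies farthest from 0, at -0.70 and -0.52, and 31 of the 39 points have the same sign on both axes.

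The other members are given by role. Lrp5, Lrp6, Axin1 and Axin2 had fitted KO against WT log2 differences between -0.07 and 0.15 over the 4 single-state comparisons, and 0 of the 4 passed in any of the 12 comparisons by edgeR, with Axin1 in the Glu-CB1 open field response (0.07 ± 0.02, adjusted p = 0.154) as the only 1 at an unadjusted p under 0.05. The 10 Frizzled receptors had KO against WT differences between -0.40 and 0.29, and 0 passed. The 3 Sfrp genes tested had differences between -0.17 and 0.26, with 0 passing and 0 at an unadjusted p under 0.05 in any comparison. Of the antagonists, Dkk3 and Dkk2 had differences between -0.75 and 0.05, with 0 passing. The median KO against WT difference over members stayed between -0.03 and 0.04 in the 4 comparisons, against a median over all genes between -0.0025 and 0.0017.

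The other genes of the pathway, 75 from a fixed list of which 74 were in the table and 69 to 71 could be tested, are described next. In the 4 KO against WT comparisons of 1 state, 0 passed in edgeR, with 4 (Glu-CB1 basal), 4 (Glu-CB1 open field), 6 (GABA-CB1 basal) and 11 (GABA-CB1 open field) at an unadjusted p under 0.05. These are 5.80%, 5.80%, 8.70% and 15.9% of those tested, against 3.57%, 6.97%, 8.16% and 13.2% of all genes. DESeq2 called 0, 0, 1 (Nkd2) and 1 (Dact2) of the listed genes, against 0.0793%, 0.816%, 0.729% and 1.01% of all genes. Over both states in GABA-CB1, 1 of 69 passed, against 0.355% of all genes: Nkd2, which binds Dishevelled and dampens the β-catenin branch, was 20.6 ± 2.4 CPM in KO and 16.8 ± 2.5 in WT (log2 difference 0.31 ± 0.07, edgeR adjusted p = 0.0369). In that comparison 13 of the 69 had an unadjusted p under 0.05 (18.84%, against 8.274% of all genes). DESeq2 called Kremen1 and Nkd2 there, with 130 of 15216 genes called in all. In Glu-CB1 over both states 0 of 69 passed in edgeR, against 0.257% of all genes. An unadjusted p under 0.05 was found there for 9 (13.04%, against 7.34% of all genes). DESeq2 called 0 in Glu-CB1 over both states (0.698% of all genes), and Nkd2 was 15.8 ± 3.3 CPM in KO and 18.3 ± 3.4 in WT.

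By edgeR the lines differed in the KO effect on 1 of 70 listed genes in each state, against 0.279% (basal) and 0.568% (open field) of all genes. In the basal state this was Kremen1, a Dkk receptor, at 0.39 ± 0.09 (edgeR adjusted p = 0.0488), and after the open field it was Dact2, a Dishevelled-binding regulator, at -0.35 ± 0.08 (edgeR adjusted p = 0.0498). Both stood just inside the threshold and were lost in 19 and 21 of the 24 cases with 1 library left out. The GABA-CB1 difference of Nkd2 over both states was lost in 14 of 24. In DESeq2 3 of 70 listed genes passed the basal line difference (Igfbp4, Kremen1 and Nkd2), against 0.513% of all genes. The basal line difference of Nkd2 was -0.71 ± 0.18 in edgeR (adjusted p = 0.125). After the open field DESeq2 called Cd44 and Dact2. The state change of the KO effect called 0 of 71 in either line in edgeR (0% of all genes) and 0 in DESeq2 (0% and 0.41%). An unadjusted edgeR p under 0.05 was found for 2 in Glu-CB1 (2.82%, against 2.47% of all genes). In GABA-CB1 it was found for 4 (5.63%, against 14.55%).

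In the open field comparison 3 of 69 passed in Glu-CB1 and 1 of 69 in GABA-CB1, against 1.83% and 0.966% of all genes. Pygo2, a nuclear co-factor of β-catenin, was higher after the open field in both lines, by 0.14 ± 0.03 in Glu-CB1 (edgeR adjusted p = 0.00834) and 0.11 ± 0.02 in GABA-CB1 (edgeR adjusted p = 0.0138), at 52.6 CPM against 47.8 and 48.7 CPM. Vangl2, a planar polarity membrane protein, was lower in Glu-CB1 by -0.30 ± 0.07 (edgeR adjusted p = 0.0224; 3.74 against 4.601 CPM), and Dact1 was higher by 0.21 ± 0.05 (edgeR adjusted p = 0.0336; 5.55 against 4.80 CPM). Dact1 was lost in 13 of 24 cases with 1 library left out. The GABA-CB1 values were -0.18 ± 0.05 for Vangl2 (edgeR adjusted p = 0.112) and 0.07 ± 0.06 for Dact1 (edgeR adjusted p = 0.706), and whether the open field effect differed by line was not tested.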

How the data were processed

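RNA of CA tissue was amplified with the NuGEN Ovation kit and sequenced by the authors, who trimmed the reads, aligned them to mm10 with STAR 2.6.0a and deposited raw counts per gene made with featureCounts 1.6.2 under a reverse-strand setting. MultiQC 1.8 and FastQC are also named in the submitters' processing notes. Groups follow the deposited labels. The study's text gives the sizes of the GABA-CB1 open field groups the other way round. The labels were kept, and Cnr1 was low in every library labelled KO. From these counts, CPM (counts per 1000000 counted reads) and RPKM (CPM per kilobase of exon) were computed, and genes were tested with edgeR 4.0.16 (TMM, filterByExpr, quasi-likelihood F test, Benjamini-Hochberg adjustment over all genes tested, threshold 0.05, R 4.3.3). The standard error of a log2 difference was taken as its size divided by the square root of F. The scripts were tested on simulated data.

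The 12 comparisons were KO against WT in each line and state, KO against WT over both states with state as a covariate, the interactions of genotype with state and with line, and open field against basal with genotype as a covariate. Alternatives were DESeq2 1.42.0, RLE size factors, looser and stricter filters (at least 10 counts in every library), 1 fit of all 48 libraries, the range of animal numbers, the replicate number, and each library left out. The first principal component as a covariate and leaving out 14 libraries were added after seeing the data. Correlations used deviations of log2 CPM from group means and 100000 permutations within groups.

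The members and the gene lists were chosen with earlier results of these data known. Named genes are those called in any comparison, non-overlapping members with an unadjusted p under 0.05, the 3 highest members per role, members not tested, called pathway genes and Cnr1. Each library is labelled as a separate sample, and p-values measure only the spread between them. No pair of the 123 pairs of libraries within groups was alike within sampling noise (lowest chi-square per degree of freedom 2.93). Gene positions come from the deposited table. Promoters come from RefSeq (GRCm38.p6), which had entries for 30 of the 48 members.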

Additional observations from a re-analysis of the deposited data

Results flagged for a closer look

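Single libraries stood far from the rest of their group, by Dixon's 95% criterion, in 16 of the 184 pairs of member and group examined (23 members), and chance alone gives about 1 in 20. The GABA-CB1-WT open field group held 5 of these. Its replicate 1 was high for Lgr5 (4.29 CPM, next 2.96), Sfrp4 (2.07, next 1.65) and Wnt4 (18.9, next 15.1), and its replicate 5 was high for Lgr4 (48.4, next 44.96) and Rspo2 (33.2, next 26.8). In basal GABA-CB1-WT, replicate 3, which also had the choroid plexus sum of 1583 CPM, was high for Wnt9a (14.5, next 8.69) and Sfrp1 (5.77, next 4.36), and replicate 5 was high for Dkk2 (0.904, next 0.599). In GABA-CB1-KO, basal replicate 6 was high for Rspo1 (2.59, next 1.89), open field replicate 1 for Wnt7b (53.9, next 36.7), and open field replicate 4, with the choroid plexus sum of 4239 CPM, for Fzd4 (15.1, next 9.10).

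In the Glu-CB1 line, open field KO replicate 3 was high for Dkk2 (0.693 CPM, next 0.471), open field WT replicate 2 for Lgr4 (46.6, next 42.4) and basal KO replicate 7 for Lgr6 (1.59, next 1.21). Basal KO replicate 5 was low for Lrp6 (73.3, next 80.5) and open field KO replicate 5 was low for Wnt7b (34.8, next 38.9).

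The KO effect differed between the lines, by edgeR's test of the interaction of genotype and line (Glu-CB1 minus GABA-CB1), for 5 results. These were Rspo1 at -1.39 (basal) and -1.81 (open field), Wnt11 at -1.74 (open field), and the pathway genes Kremen1 at 0.39 (basal) and Dact2 at -0.35 (open field).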

How the results depend on the processing

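The number of members called changed by more than 1.5 times in 19 of 106 comparisons of a count with its value under another setting, and the cause was not tested. Where no number over all genes stands beside a count below, it cannot be told apart from a change in the whole fit. Under DESeq2 it was 3 in Glu-CB1 open field (0.816% of all genes), 1 in GABA-CB1 open field (1.01%) and 2 in the basal line difference (0.513%). With at least 10 counts in every library it was 2 in Glu-CB1 open field, where 44 of 14357 genes passed in all. In 1 fit of all 48 libraries it was 2 in GABA-CB1 open field, 2 in Glu-CB1 over both states and 2 in the basal line difference. Over all genes, that fit called 106 of 15570 in GABA-CB1 open field, against 3 of 15097 in the main fit. In Glu-CB1 over both states it called 58 of 15570, against 39 of 15178. With the animal number range it was 0 in GABA-CB1 basal, where 7 of 15082 genes passed in all. With the first principal component, chosen after seeing the data, it was 2 in Glu-CB1 open field (84 of 15078 genes in all). It was also 2 in the basal line difference and 2 in the Glu-CB1 open field response. Without the 14 libraries that stood apart, also chosen after seeing the data, it was 1 in GABA-CB1 basal (22 of 15145 genes in all). It was 0 in Glu-CB1 over both states (14 of 15167 in all), 0 in the basal line difference and 0 in the GABA-CB1 open field response. In Glu-CB1 open field it stayed at 1 without them (15 of 15120 genes in all), but with Rspo3 (0.52, edgeR adjusted p = 0.0313) in place of Wnt11.

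The replicate numbers did not pair the samples (r over 0.1 in 7 of 21 KO-WT pairs of the same number, from -0.729 to 0.647). With the replicate block the count was 0 in Glu-CB1 open field (3 of 15078 genes in all) and 0 in GABA-CB1 basal (8 of 15082). It was also 0 in the open field line difference and 0 in the GABA-CB1 open field response.

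With 1 library left out, the count ran from 0 to 2 in Glu-CB1 open field, 1 to 2 in GABA-CB1 basal, 0 to 1 in GABA-CB1 open field, 1 to 2 in Glu-CB1 and 2 to 3 in GABA-CB1 over both states, 1 to 2 in the basal and 2 to 3 in the open field line difference, 1 to 2 in the Glu-CB1 and 0 to 1 in the GABA-CB1 open field response, and stayed at 0 in the other 3 comparisons. Over all genes, the calls in these fits ran from 14 to 48 in Glu-CB1 open field and 17 to 34 in GABA-CB1 basal. They ran from 2 to 11 in GABA-CB1 open field and 25 to 100 in Glu-CB1 over both states. The Lgr5 difference in Glu-CB1 open field, -0.04 in the full fit, changed sign when 1 library was left out (-0.11 to 0.036).

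Of 618 values under other settings than a library left out, 16 newly passed the threshold, 31 no longer passed and 571 were unchanged. The 571 include the levels of all 48 members, which have no threshold. The rest of the 571, from tests of named genes, kept their direction and side of the threshold. Rspo1 and Lgr5 in GABA-CB1 over both states and Wnt9a in the Glu-CB1 open field response passed under all 9 settings and with any 1 library left out. With TMM library sizes 48 of 48 levels stayed within 1 SD. Depth limits the low members, with at most 82 counts in a library for Rspo1, 64 for Wnt11, 74 for Wnt10a and 29 for Dkk2.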
